A study of Mus musculus with 6 samples.

Results

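The transcripts described here are those of 10 genes through which circulating and local hormones reach sympathetic neurons: the angiotensin genes Agt, Ace, Agtr1a and Agtr2, the natriuretic peptide genes Nppb, Nppc, Npr1, Npr2 and Npr3, and the neuronal nitric oxide synthase gene Nos1. They were read by every probe set (a group of short probes whose signals are combined into a single value, and which can match more than 1 transcript) whose platform annotation names exactly 1 of these genes, which gave 16 of 45037 probe sets. The tissue was both stellate ganglia, the paired sympathetic ganglia whose fibres supply the heart, pooled from each animal. There were 3 sham-operated mice (arrays sham A, B and C) and 3 mice with transverse aortic constriction (TAC A, B and C), all male C57/Bl6 and all sampled 8 weeks after surgery. TAC narrows the aorta and makes the left ventricle pump against a raised pressure. The labels give no age, and the sham animals carried the operation but not the constriction. All values are log2 intensities of the authors' GCRMA table, and triplets of values are in the order A, B, C. Only 3 genes, Ace, Agtr1a and Npr2, had probe sets with a mean of at least 4 over the 6 arrays, 4 probe sets in all. The other 7 genes, with 12 probe sets, lay under that floor and are called dim.

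Angiotensin II is made from the precursor angiotensinogen (Agt) by renin and then by angiotensin-converting enzyme (Ace). In sympathetic ganglia it acts through the type 1 receptor (Agtr1a in rodents) to raise neuronal firing and noradrenaline release, and the type 2 receptor (Agtr2) often opposes the type 1 receptor. The natriuretic peptides oppose this system: the peptide made from Nppb acts mainly on Npr1 and the peptide made from Nppc on Npr2, and both receptors are guanylyl cyclases that make cGMP. Npr3 lacks the cyclase domain and clears the peptides. Nitric oxide from Nos1 reaches the same second messenger through soluble guanylyl cyclase. In bulk tissue, fewer cells of a type and less RNA per cell cannot be told apart.

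The ganglia carried the transcripts that define sympathetic neurons. Of 16 such markers with a probe set, 16 were above the floor. Their linear intensities summed to 144909 to 155597 in sham and to 157164 to 163868 in TAC, without overlap. By their brightest probe sets, 8 had a higher and 8 a lower TAC mean, with a median difference of -0.0028 and 0 calls. Npy had the largest difference of them, 0.77 (limma adjusted p = 0.512), so the higher sum is not a rise shared by the markers. Pairs of arrays had correlations of 0.980 to 0.994 across the 17550 probe sets tested, and TAC B stood furthest from the others. Brown fat markers summed to 1647 and 816 in the animals sham C and TAC B and to 436 to 528 elsewhere, and skeletal muscle markers spanned 88.3 to 1458 within the sham group.

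The 3 precursor and peptide genes are shown first by the 60 bases before their start sites, because all of them were dim in the ganglia and all carry the same short element. The sequences are RefSeq's, build GRCm38.p6, written 5′ to 3′ on the gene's strand, and capitals mark TATAAA.
Agt, chr8:124569707-124569766, minus strand: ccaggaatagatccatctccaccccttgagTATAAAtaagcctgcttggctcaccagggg
Nppb, chr4:147985840-147985899, plus strand: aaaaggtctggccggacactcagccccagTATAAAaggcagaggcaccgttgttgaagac
Nppc, chr1:86670574-86670633, minus strand: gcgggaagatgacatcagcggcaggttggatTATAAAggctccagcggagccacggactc
The element began at -30 in Agt, -31 in Nppb and -29 in Nppc, counted from the start site. On the gene's strand and starting between -40 and -20, TATAAA was found in 3 of the 10 windows available for 9 of the 10 genes. It was found at that place in 1.99% of 32851 windows of 300 bases over all genes. Searched on both strands over the whole window, TATAAA was in 4 of the 10 member windows and in 13.6% of all windows. The fourth was Ace, where it lies on the opposite strand. The windows of the receptor genes Agtr2, Npr1, Npr2 and Npr3, and that of Nos1, held no TATAAA. For the receptor gene Agtr1a no window was available. These matches describe letters in a window and not sites in use.

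Ace is shown at greater length because it was the member with the largest difference between the groups and because 2 start sites were given for it. The 150 bases before the upstream start hold the GC-rich hexamer GGGCGG, searched on both strands, at -140, -136 (overlapping the first), -75 and -18. Capitals mark those 4 matches and the opposite-strand match to TATAAA.
Ace, chr11:105967798-105967947, plus strand: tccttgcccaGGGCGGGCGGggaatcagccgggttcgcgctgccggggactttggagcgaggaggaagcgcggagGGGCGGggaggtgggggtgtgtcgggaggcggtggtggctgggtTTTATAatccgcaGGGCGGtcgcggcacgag
GGGCGG was in 35.7% of all windows and in 3 of the 10 member windows, those of Ace, Nppc and Npr1. The window at the downstream Ace start held neither hexamer. Its GC content was 59%, with 2 CG pairs, against 69.7% and 29 CG pairs at the upstream start. Which of the start sites each Ace probe set reads was not tested.

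No member passed the adjusted threshold between TAC and sham. limma called 0 of the 4 tested member probe sets at a Benjamini-Hochberg adjusted p under 0.05, as it called 0% of all 17550 tested. At an unadjusted p under 0.05 there was 1 of the 4, against 9.08% of all tested probe sets. The median TAC minus sham difference of the 4 was 0.11 on the log2 scale, beside 0.03 over all tested probe sets. At this group size the exact permutation test of 1 probe set reaches no p lower than 0.1.

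The difference with the smallest p was at Ace, the enzyme that cleaves angiotensin I to angiotensin II and also breaks down bradykinin. Its probe set 1451911_a_at measured 5.93, 5.85 and 6.17 in sham and 6.33, 6.30 and 6.62 in TAC. Every TAC array lay above every sham array, as was the case in the same direction for 9.02% of all tested probe sets. The means were 5.98 ± 0.16 in sham and 6.42 ± 0.18 in TAC (SD, n = 3), a TAC minus sham difference of 0.43 with a limma standard error of 0.13 and an adjusted p of 0.516. The 95% interval of the ratio ran from 1.09-fold to 1.68-fold, around 1.35-fold. The two-sided exact permutation test gave the smallest p it can reach, 0.1.

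The other Ace probe set did not separate the groups. On 1427034_at the sham arrays measured 6.11, 5.32 and 5.99 and the TAC arrays 5.95, 5.97 and 5.90. Sham B was low, sham A and sham C lay above every TAC array, and the TAC arrays were close together. The difference was 0.13 (SE 0.21, limma adjusted p = 0.838), with a 95% interval of -0.37 to 0.63, and without sham B it turned to -0.11. The gap of 0.30 between the differences of these Ace probe sets had a two-sided exact permutation p of 0.4 over the 20 assignments of the arrays, a test that cannot go below 0.1 with 3 arrays against 3. When both were averaged, 0 members had an unadjusted p under 0.05. Ace is made by vascular endothelium, and the endothelial markers Pecam1, Cdh5, Kdr, Tek and Tie1 were dim. The 3 endothelial markers above the floor (Cldn5, Egfl7 and Emcn) all had higher TAC means, with a median difference of 0.33 and 0 calls. The 8 endothelial markers summed to 348 to 438 in sham and 382 to 449 in TAC. Mural cell markers, 4 of 8 above the floor, summed to 1862 to 1959 in sham and 2022 to 2869 in TAC, without overlap. Of those 4 markers, 1 was by itself separate between the groups. The part of these cells in the Ace difference was not tested.

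**Figure D1:**
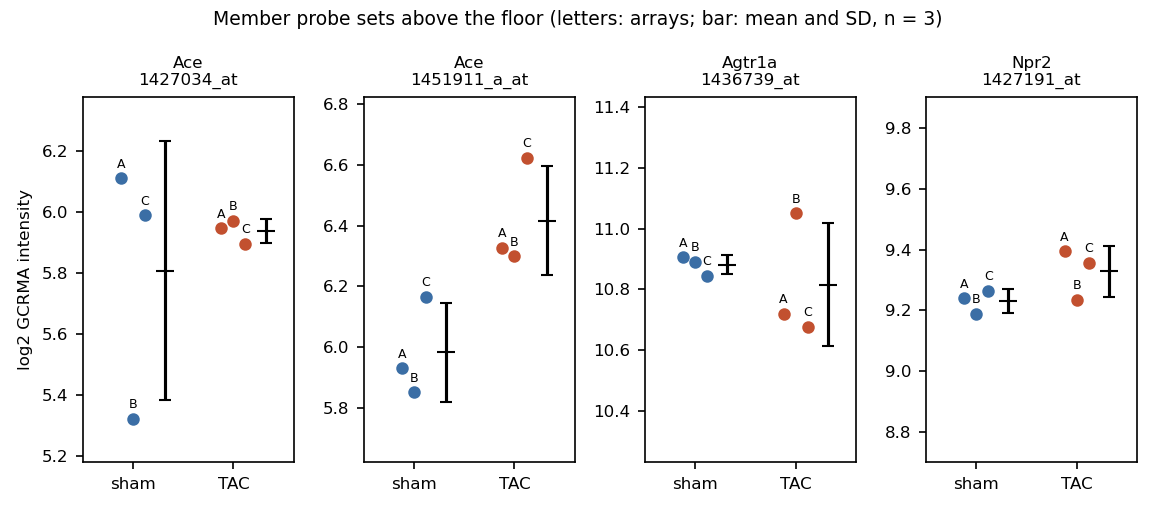
log2 GCRMA intensity of the 4 member probe sets above the floor in each array (letters), with the mean and SD of 3 arrays beside each group; the axes differ in position between panels. The groups are separate for Ace 1451911_a_at and overlap in the other 3 panels, and sham B is the low array of Ace 1427034_at.

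Agtr1a, the receptor through which angiotensin II excites sympathetic neurons, was measured well above the floor on every array. It read 10.91, 10.89 and 10.85 in sham and 10.72, 11.05 and 10.68 in TAC. The sham arrays lay close together, and the TAC arrays lay on both sides of them, TAC B above and TAC A and C below. The means were 10.88 ± 0.03 in sham and 10.82 ± 0.20 in TAC (SD, n = 3), a difference of -0.06 with SE 0.12 (limma adjusted p = 0.860). The 95% interval of the ratio ran from 0.789-fold to 1.16-fold. Without TAC C the difference was 0.0047. The near-identical copy Agtr1b had a probe set of its own, which was dim at 2.47 to 2.61. Agtr2, the type 2 receptor, was dim on every array, at 2.83, 2.93 and 2.90 in sham and 2.81, 2.79 and 2.79 in TAC.

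Npr2, the cyclase receptor for the C-type peptide, was the only member of the natriuretic group above the floor. It measured 9.24, 9.19 and 9.26 in sham and 9.39, 9.23 and 9.36 in TAC. TAC B lay within the sham range and TAC A and C lay above it. The means were 9.23 ± 0.04 and 9.33 ± 0.08 (SD, n = 3), a difference of 0.10 with SE 0.08 (limma adjusted p = 0.681). The 95% interval of the ratio, 0.938-fold to 1.22-fold, includes no change. The peptide Npr2 binds comes from Nppc, whose probe set read 2.15 to 2.19 on all 6 arrays. Npr1, the receptor of the A-type and B-type peptides, read 2.70 to 2.76. Nppb, the B-type precursor that failing heart muscle releases, read 1.72 to 1.75.

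The dim members shared a small offset to lower TAC values with the dim range of the whole table. The 12 dim probe sets (Agt, Agtr2, Nppb, Nppc and Npr1 with 1 each, Npr3 with 3, Nos1 with 4) measured between 1.72 and 3.19 on every array, and 11 had a lower TAC mean. In 9 of them every TAC array lay below every sham array. The same held for 71.6% of the 27487 dim probe sets of the whole table, and 87% of those had a lower TAC mean. The median difference was -0.04 for the dim members and -0.04 for all dim probe sets. A share this near the background is no result about these genes. After quantile normalization the difference of Agt was 6.2e-05, that of Nppc -2.9e-05 and that of Npr1 turned to 0.01. Agtr2 stayed at -0.03 and Npr3 1435184_at at -0.06, and 8 of the 12 were still lower in TAC. GCRMA gives no detection call, so a dim value does not show that the transcript was absent.

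**Figure D2:**
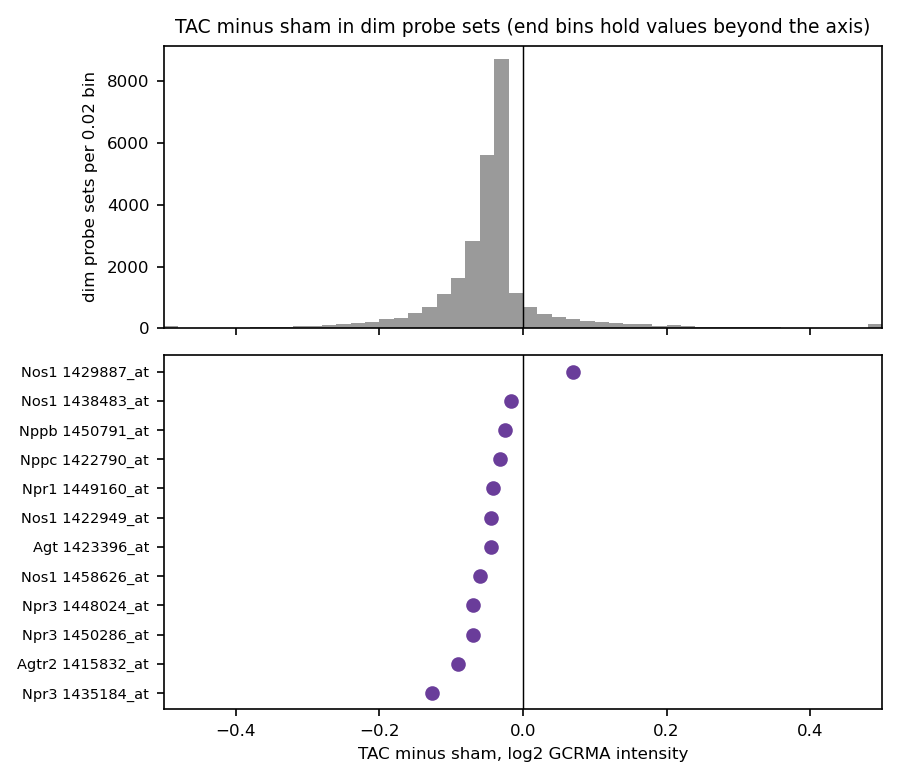
Top, number of dim probe sets per bin of 0.02 by their TAC minus sham difference in log2 GCRMA intensity; bottom, the same difference for each of the 12 dim member probe sets. Of the member probe sets 11 lie below 0, where 87% of all dim probe sets lie, and Nos1 1429887_at lies above it.

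Among the dim members, Agt measured 2.51, 2.57 and 2.54 in sham and 2.50, 2.50 and 2.50 in TAC. Agt is a product of liver and of fat. The arrays rich in brown fat markers, sham C and TAC B, read 2.54 and 2.50 for it, beside group means of 2.54 and 2.50. Of the 8 liver markers 7 had a probe set, and Alb, Ttr and Apoa2 were above the floor, all with lower TAC means by their brightest probe sets and 0 calls. The liver markers summed to 523 to 546 in sham and 210 to 462 in TAC, without overlap. The Agt difference of -0.044 lay near the median of all dim probe sets, -0.041, so it gives no direction to set beside them. Npr3, the clearance receptor, is also abundant in fat. Its brightest probe set 1435184_at read 3.19, 3.10 and 3.11 in sham and 3.06, 2.89 and 3.06 in TAC. The other Npr3 probe sets read 2.41 to 2.55 and 2.72 to 2.84. The part of liver or fat transcripts in the Agt and Npr3 values was not tested.

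Nos1, which makes nitric oxide in neurons, had 4 probe sets and all were dim. Of these, 1422949_at read 2.33 to 2.40, 1438483_at read 2.23 to 2.26, and 1458626_at read 2.80 to 2.92. The only member probe set with a higher TAC mean among the dim ones was Nos1 1429887_at, at 2.30, 2.33 and 2.33 in sham and 2.26, 2.59 and 2.31 in TAC. The difference was 0.07, and TAC B was the only array above the sham range. On the other Nos1 probe sets TAC B read 2.34, 2.25 and 2.84, within or below the sham range.

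The receiving end of nitric oxide was present. Soluble guanylyl cyclase is a dimer of an alpha subunit (Gucy1a1 or Gucy1a2) and the beta subunit (Gucy1b1), and 6 of its 7 probe sets were above the floor. limma called 0 of the 6 at an adjusted p under 0.05 and 3 had an unadjusted p under 0.05, all of them higher in TAC, where 6.03% of all tested probe sets were. Those of Gucy1a1 and Gucy1b1 described here beside the brightest were chosen after their values were seen. Gucy1a2 measured 8.19, 8.07 and 8.05 in sham and 8.40, 8.83 and 8.52 in TAC. All TAC arrays lay above all sham arrays, with a difference of 0.48 (SE 0.13, limma adjusted p = 0.516) and a ratio of 1.40-fold (95% interval 1.13-fold to 1.73-fold).

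The probe sets of Gucy1a1 gave unlike values. Its probe set 1420533_at measured 7.12, 7.30 and 7.03 in sham and 7.59, 7.49 and 7.76 in TAC, a difference of 0.46 (SE 0.11, limma adjusted p = 0.512) with groups that did not overlap. The brightest, 1434141_at, measured 12.15, 12.28 and 12.21 in sham and 12.36, 12.08 and 12.25 in TAC. These groups overlapped, with a difference of 0.01 (SE 0.10) that turned negative without sham A, without TAC A or with a brown fat score as a covariate. The third, 1420534_at, was at 0.21 (SE 0.12). The probe sets of the beta subunit did so too. Gucy1b1 probe set 1420871_at measured 8.41, 8.52 and 8.23 in sham and 8.73, 8.70 and 8.73 in TAC. Its brighter probe set 1420872_at measured 10.88, 10.83 and 10.79 in sham and 10.82, 10.88 and 10.94 in TAC. The first was separate between the groups at 0.33 (SE 0.09, limma adjusted p = 0.516), and the second overlapped at 0.04 (SE 0.08).

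The gap between the difference of 1420533_at and that of the brightest Gucy1a1 probe set was 0.45. The gap between the Gucy1b1 probe sets was 0.29. For both gaps the two-sided exact permutation test gave the smallest p it can reach, 0.1, or 0.133 with Benjamini-Hochberg adjustment over the 4 pairs of probe sets compared, so no gap could pass 0.05 with these 6 arrays. In all, 3 of the 6 probe sets of the enzyme had every TAC array above every sham array, as had 9.02% of all tested probe sets. Soluble guanylyl cyclase is abundant in vascular mural cells as well as in neurons. The mural markers above the floor, Acta2, Tagln, Rgs5 and Pdgfrb, all had higher TAC means, with a median difference of 0.33 and 0 calls, and their summed level was highest on TAC B. Gucy1a2 was also highest on TAC B, while in the separate probe sets of Gucy1a1 and Gucy1b1 it was the lowest of the TAC arrays. The summed sympathetic neuron markers were also higher in TAC without overlap. Taken singly, 8 of these markers had a higher and 8 a lower TAC mean, with a median difference of -0.0028. The part of mural cells or of neurons in these values was not tested.

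**Figure D3:**
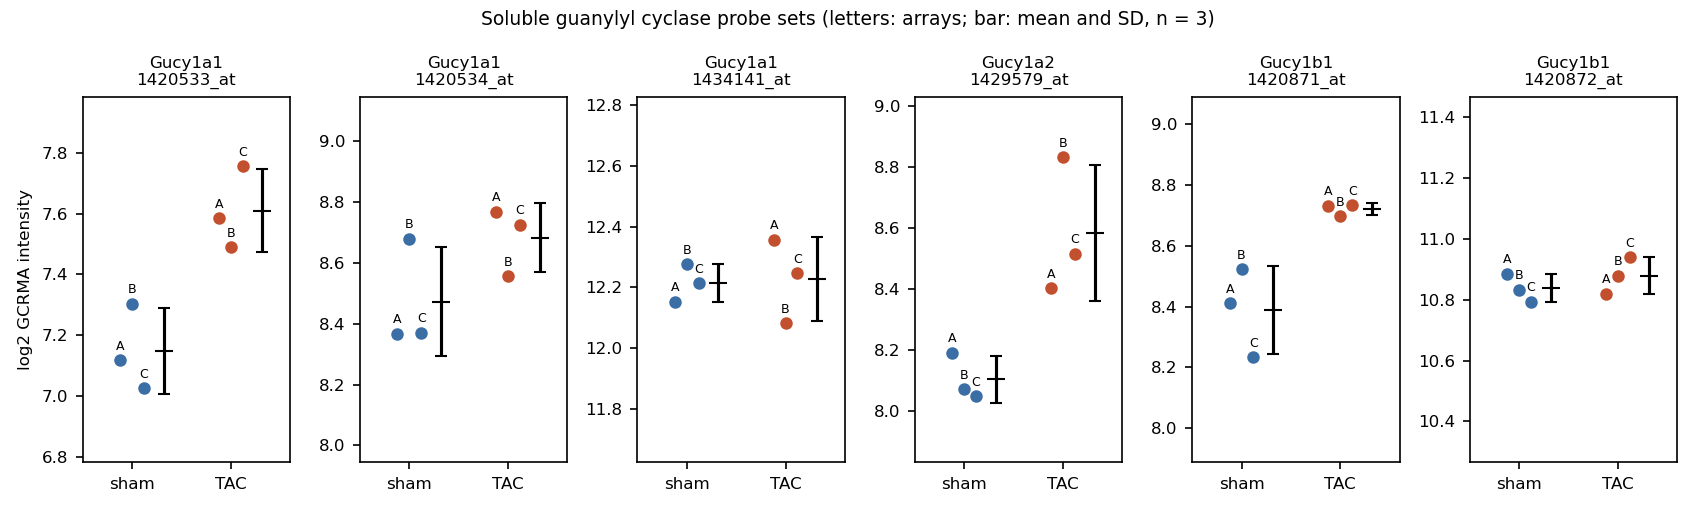
log2 GCRMA intensity of the 6 soluble guanylyl cyclase probe sets above the floor in each array (letters), with the mean and SD of 3 arrays beside each group. Gucy1a1 1420533_at, Gucy1a2 1429579_at and Gucy1b1 1420871_at are separate between sham and TAC, and the other 3 probe sets overlap.

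**Figure D4:**
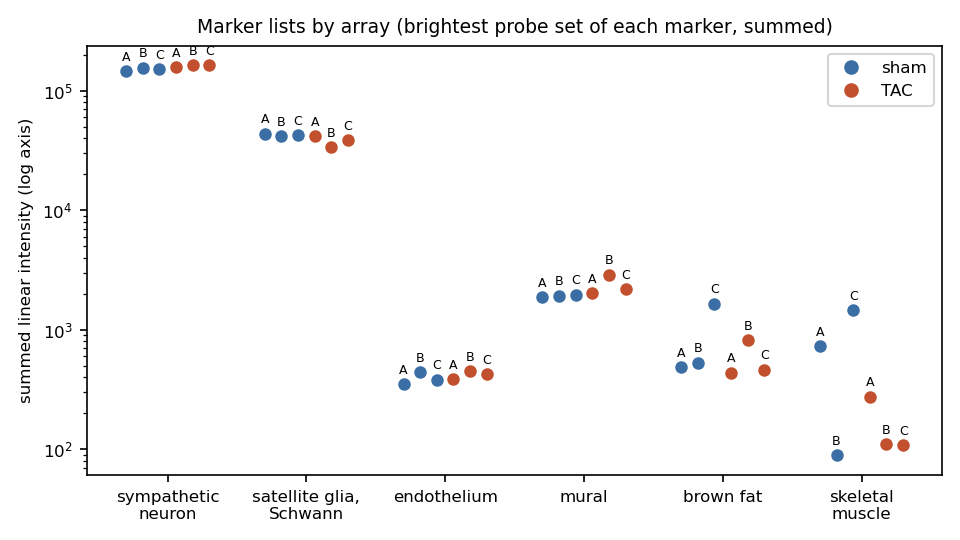
Summed linear intensity of 6 marker lists on each array (letters), on a log axis, with the brightest probe set of each marker. The mural sums do not overlap between sham (1862 to 1959) and TAC (2022 to 2869). Nor do the sympathetic neuron sums, at 144909 to 155597 in sham and 157164 to 163868 in TAC. Of the 16 sympathetic neuron markers, 8 had a higher and 8 a lower TAC mean. The brown fat sums are highest on sham C and TAC B.

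The other genes of these pathways were taken from 4 lists of 69 genes, of which 61 had a probe set and 36 were above the floor by their brightest probe set. limma called 0 of the 36 at an adjusted p under 0.05, as it called 0% of the 9955 genes tested in this way. At an unadjusted p under 0.05 there were 3 higher and 3 lower, against 5.43% and 3.32% of all tested genes. The count in both directions was 3 without TAC B and 3 without TAC C. Of the 36, 19 had a higher TAC mean, where 55% of all tested genes had, and the median difference was 0.01 beside 0.02 over all tested genes.

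Among the other genes of the angiotensin pathway, 5 of 15 with a probe set were above the floor. Those that were dim include the type 1 receptor copy Agtr1b, the receptor Mas1, the aminopeptidases Enpep and Anpep and the mast cell chymase Cma1, which can also make angiotensin II. The neurolysin gene Nln, a peptidase that cleaves small neuropeptides, had a brightest probe set at 7.91, 7.98 and 7.65 in sham and 7.62, 7.09 and 7.59 in TAC. All TAC arrays lay below all sham arrays there, with a difference of -0.41 (SE 0.17, limma adjusted p = 0.549). The share of all tested probe sets separate in this direction is not given here, for Nln or for the genes below. Its dimmer probe set went the other way, at 4.68, 4.22 and 4.88 in sham and 5.11, 5.05 and 5.07 in TAC, so no direction is given for Nln. The prorenin receptor Atp6ap2, which is also a part of the vesicular proton pump, was at 0.14 by its brightest probe set (SE 0.09). Its other probe sets were at 0.20 and, with groups that did not overlap, at 0.45 (SE 0.10, limma adjusted p = 0.512), a value singled out after it was seen. The carboxypeptidase Prcp, which can cleave angiotensin II, was at 0.41 (SE 0.22).

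In the natriuretic list 2 of 7 genes with a probe set were above the floor. The protease gene Furin was at -0.07 (SE 0.08) and the insulin-degrading enzyme Ide, which also breaks down natriuretic peptides, at 0.04 (SE 0.08). The A-type precursor Nppa read 2.80 to 2.92, its converting enzyme Corin 2.25 to 2.51, and both were dim.

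In the nitric oxide list 16 of 21 genes with a probe set were above the floor, with 3 higher and 2 lower at an unadjusted p under 0.05. Besides Gucy1a2, the higher ones were Dlg4, the PSD-95 scaffold that binds neuronal nitric oxide synthase, and the cationic amino acid transporter Slc7a2, which carries arginine. Dlg4 measured 5.91, 5.61 and 5.37 in sham and 6.31, 5.97 and 6.31 in TAC, a difference of 0.56 (SE 0.17, limma adjusted p = 0.516) with groups that did not overlap. Slc7a2 was at 0.22 (SE 0.09, limma adjusted p = 0.547). The lower ones were Arg1, the arginase that competes for arginine, at -0.29 (SE 0.10, limma adjusted p = 0.542), and Nos1ap, an adaptor of neuronal nitric oxide synthase, at -0.34 (SE 0.14, limma adjusted p = 0.547). Arg1 read 8.48, 8.70 and 8.39 in sham and 8.24, 8.23 and 8.23 in TAC, so the TAC arrays were lower and close together. Of the other synthases, inducible Nos2 was dim, and endothelial Nos3 lay at the floor with 3.89 to 3.98 in sham and 3.87 to 4.29 in TAC. Ddah1 and Ddah2, which clear the endogenous synthase inhibitor, were at 0.02 and -0.05. The dynein light chain Dynll1, which binds the neuronal synthase, was at -0.14, with its other probe sets between -0.20 and -0.69. The last of these, Dynll1 1440278_at, had groups that did not overlap (SE 0.19, limma adjusted p = 0.516). It was singled out after its value was seen.

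In the cGMP list 13 of 19 genes with a probe set were above the floor, with 0 higher and 1 lower at an unadjusted p under 0.05. The lower gene was the phosphodiesterase Pde3b, at 8.12, 8.12 and 8.26 in sham and 7.90, 7.96 and 7.84 in TAC. Its groups did not overlap, and the difference was -0.26 (SE 0.08, limma adjusted p = 0.516). Pde3b is abundant in fat. Within each group it was highest on the array rich in brown fat markers, at 8.26 on sham C and 7.96 on TAC B, and the part of fat in the difference was not tested. The cGMP-stimulated phosphodiesterase Pde2a was at -0.34 (SE 0.18), Pde9a at 0.04, and all Pde5a probe sets were dim. The cGMP-dependent kinases Prkg1 and Prkg2 were at 0.23 (SE 0.13) and 0.10 (SE 0.10).

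**Figure D5:**
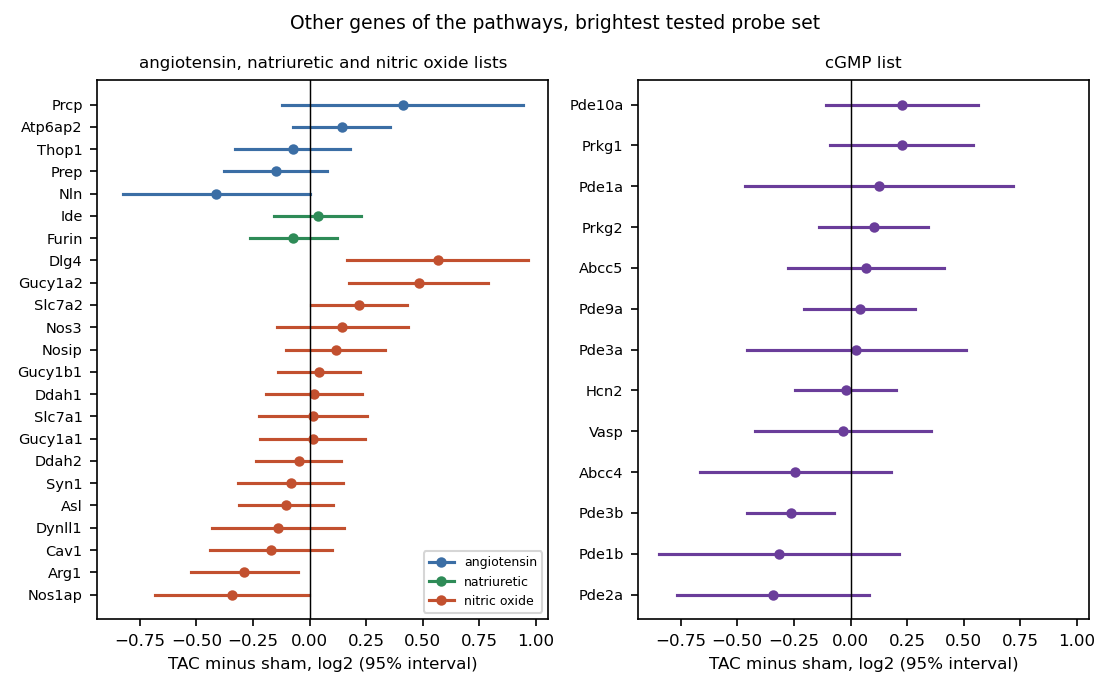
TAC minus sham difference in log2 GCRMA intensity with its 95% interval from limma for the 36 other pathway genes above the floor, coloured by list. The intervals that leave out 0 are those of Dlg4, Gucy1a2, Slc7a2, Arg1, Nos1ap and Pde3b, and none of the 6 passed the adjusted threshold.

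No member's brightest tested probe set spanned more than 1 on the log2 scale over the 6 arrays (0.77 for Ace, 0.37 for Agtr1a, 0.20 for Npr2), so genes of similar pattern were not sought.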

How the data were processed

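RNA from both stellate ganglia of 1 animal was hybridised to 1 Affymetrix array, per the labels' protocols. The authors deposited linear probe set intensities from GCRMA (named in the submitters' processing notes), with version and settings not given in the sources used here. GCRMA compresses values near background. The table held 45101 probe sets, 64 of them controls left out here. Values were log2-transformed with no pseudocount, and 27487 probe sets with a mean under 4 were marked dim and not tested.

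TAC and sham were compared with limma 3.58.1 (R 4.3.3; lmFit, eBayes, two-sided), with Benjamini-Hochberg adjustment over 17550 probe sets. Where a pathway gene had several probe sets, the brightest stood for it. The procedure was tested on simulated data. The platform annotation gave 34958 probe sets 1 symbol, 932 several and 9211 none. All 16 member probe sets matched RefSeq symbols (GRCm38.p6) by gene identifier, and promoter windows came from RefSeq.

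The members and lists were chosen with earlier results of these data known. Named were all members, pathway genes with an unadjusted p under 0.05, the 3 of smallest p per list, and other pathway genes by their difference. Arrays were taken as separate animals per the labels, and their number limits the precision. Alternatives covered the floor, variance model, array weights, normalization, threshold, probe set averaging, the title letter as a block, fat and muscle scores, and arrays left out. Figures used matplotlib 3.10.9.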

Additional observations from a re-analysis of the deposited data

How the results depend on the processing

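The calls of member probe sets and of pathway genes stayed at 0 under each alternative with an adjusted p: no floor, a floor of 6, another variance model, array weights, quantile normalization, the replicate block, both scores as covariates, averaged probe sets, without sham C and TAC B, and with any 1 array left out (0 to 0). By an unadjusted p they were 1 and 6. With no floor, 4 member probe sets and 11 pathway genes had an unadjusted p under 0.05, since dim probe sets then enter. Of all dim probe sets, 71.6% had every TAC array below every sham array. The share over all probe sets in that fit is not given here, so these counts are no result about these genes. Over all probe sets the calls numbered 1 without TAC B, 1 without TAC C and 2 genes with averaged probe sets. Ace 1451911_a_at stayed at 0.33 to 0.58 (adjusted p 0.238 to 0.824) in the fits of single probe sets, and Ace averaged over its 2 tested probe sets gave 0.28. Ace 1451911_a_at, Gucy1a2, Gucy1a1 1420533_at and Gucy1b1 1420871_at had an unadjusted p under 0.05 in 15 of 15 fits of single probe sets. These probe sets were singled out by their values in the main fit. The other fits reuse the same arrays, so this count is no separate support. Signs turned for Ace 1427034_at without sham B (-0.112), Agtr1a without TAC C (0.00466, and -0.182 without TAC B) and Gucy1a1 1434141_at without sham A (-0.0172), without TAC A (-0.0507, and 0.0865 without TAC B) and with the brown fat score (-0.0129). The cause was not tested. The dim member probe sets lower in TAC, a count added after the data were seen, numbered 8 to 12. Same-lettered arrays did not deviate together (correlations 0.08, -0.0031 and -0.17), and pairs with different letters had correlations from -0.13 to 0.14. Arrays this few cannot show whether same-lettered ones share more than the letter. With the letter as a replicate block the calls were 0. GCRMA values near background limit what can be said of the 7 dim genes.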
